A study of Vitis vinifera and Vitis quinquangularis with 24 samples.

Results

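The MYBA colour locus of grape lies on chromosome 2 and holds a small group of related MYB transcription factor genes. It was followed here by 4 identifiers, VIT_02s0033g00380, VIT_02s0033g00390 (MYBA2), VIT_02s0033g00410 (MYBA1) and VIT_02s0033g00450 (MYBA3). Of these, 2 have a row in the deposited tables of 27711 gene models, VIT_02s0033g00380 and MYBA1, and both were tested among 18375 models. MYBA2 and MYBA3 under their own identifiers were not analysed here. VIT_16s0039g02230, which encodes UFGT, is given beside them for reference.

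Berry skin RNA was sequenced in 2 grapes. Danfeng-2 is an accession of Vitis quinquangularis, a wild grape of China, and Cabernet Sauvignon is a black wine cultivar of Vitis vinifera. Sampling followed the Eichhorn-Lorenz scale of berry growth, at its green (E-L 33), softening (E-L 34), colouring (E-L 35) and ripe (E-L 38) stages. These stage names are those of the scale and not of a colour seen in the samples. Each of the 8 groups had 3 libraries, and no treatment or transgene is named. Species and cultivar cannot be told apart in these groups, since each species is present as 1 accession, and the labels give no skin colour. The series title names resveratrol, and the locus bears on skin colour, a separate branch of phenylpropanoid metabolism.

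As background, MYBA1 and MYBA2 are the regulators known to switch on anthocyanin synthesis in grape berry skin. White-berried V. vinifera cultivars are known to carry a retrotransposon in front of MYBA1 together with a mutated MYBA2. UFGT is the glucosyltransferase that attaches glucose to anthocyanidins, the step that gives stable red and blue pigment, and it is a known target of these MYB factors. MYBA3 is a relative of them at the same locus whose part in berry colour is less clear.

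Total counts per library were 13201295 to 23095568, and levels are given as CPM, counts scaled to the TMM-adjusted library total. A model was called changed at a Benjamini-Hochberg adjusted p below 0.05 by edgeR's quasi-likelihood test together with a change of at least 2-fold. Of the libraries, 3 stood apart from the others of their groups in earlier work on these data: replicate 1 of Danfeng-2 at the green stage, replicate 1 of Danfeng-2 at colouring, and replicate 3 of Cabernet Sauvignon at softening. In the colouring and ripe groups that carry the results below, the lowest correlation between libraries was 0.994 in Cabernet Sauvignon and 0.95 in Danfeng-2. Leaving these 3 libraries out ended no call of either row; it added 1, given below with the early step. Fewer cells of a type and less RNA per cell cannot be told apart in such bulk samples, and no skin marker could be looked up, since the files give no gene names.

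The rows of the locus differ greatly in extent. VIT_02s0033g00380 covers chromosome 2 from 14179413 to 14309383 on the minus strand, 129971 bp, although its Length in the tables is 1213 bp. Only 158 rows of the whole table, 0.57%, span at least as much. MYBA1 lies from 14239792 to 14240808 on the same strand, a span of 1017 bp with a Length of 811 bp. It begins 60379 bp after the start of the wide row and ends 68575 bp before its end, so MYBA1 is enclosed by it. UFGT lies on chromosome 16 from 2333168 to 2334700, minus strand, with a Length of 1435 bp. No source used here gives the genome build or the exons, so only these outer positions can be stated.

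The wide row wholly encloses 5 other rows, 4 of them on its own strand. Rows that enclose another row made up 3.26% of the table, 904 in number. By its number MYBA2 would fall inside the wide row and MYBA3 near its far end, with the row VIT_02s0033g00460 starting 4034 bp past that end. Whether reads of MYBA2 or MYBA3 were counted in the VIT_02s0033g00380 row cannot be told from the tables, so its value is given as that of the row and not of 1 gene. Reads of MYBA1, enclosed on the same strand, may also be shared or split between the 2 rows, which was not tested. A result of 2 of 2 rows may therefore not be 2 separate measurements.

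A second feature sets the wide row apart. The deposited FPKM was set against the value expected from the count and the Length, with the library median as 1. In the 6 Cabernet Sauvignon libraries at colouring and ripeness, this ratio was 2.25 to 2.75 for VIT_02s0033g00380, with a median of 2.64. It was 1.04 to 1.05 for MYBA1 and 0.912 to 0.921 for UFGT. Over 15106 models with at least 100 counts, 5% lay below 0.855 and 5% above 1.78, and 1.42% were at or above the wide row. Levels of the wide row therefore depend on whether CPM per kb of Length or the deposited FPKM is used, and both are given where genes are compared. Why the 2 scales differ for this row was not tested.

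**Figure D1:**
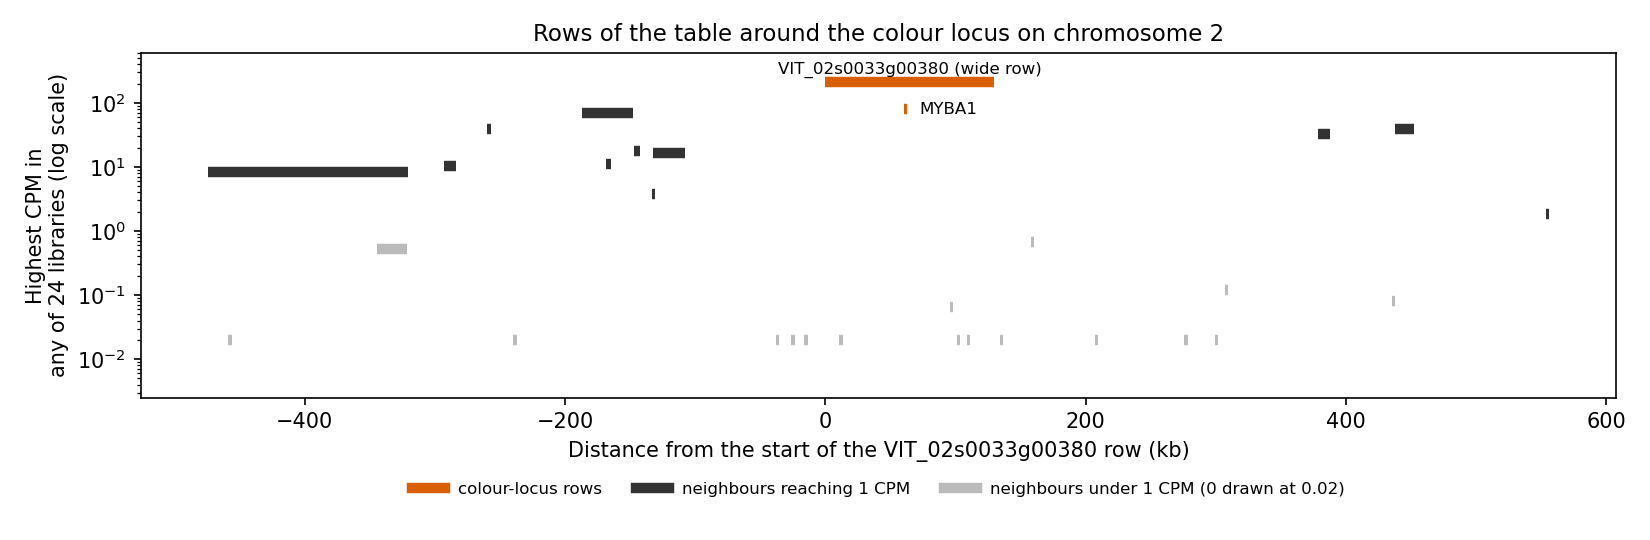
Rows of the tables on chromosome 2 by distance in kb from the start of the VIT_02s0033g00380 row, against the highest CPM in any of the 24 libraries on a log scale. The wide row and MYBA1 inside it reach 212.6 and 79.7 CPM, while the other rows inside the span hold 1 count in all.

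Both rows were read in quantity in Cabernet Sauvignon skin at colouring and ripeness and nowhere else in the design. In Danfeng-2, 12 libraries with 180382109 counts together held 5 counts of VIT_02s0033g00380 and 2 counts of MYBA1. In Cabernet Sauvignon, 12 libraries with 210251529 counts held 14750 and 4473. The plot of level per library shows the gap between these libraries and all others.

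VIT_02s0033g00380 had 0, 0 and 0 counts in green Danfeng-2 skin, 0, 2 and 2 at softening, 0, 0 and 0 at colouring, and 1, 0 and 0 when ripe. In Cabernet Sauvignon it had 1, 4 and 1 counts when green, 0, 0 and 4 at softening, 1793, 2007 and 2530 at colouring, and 2757, 2801 and 2852 when ripe. The highest Danfeng-2 library was at 0.127 CPM, and the last 2 stages of Cabernet Sauvignon overlapped no other group. In Cabernet Sauvignon the mean was 136.5 ± 10.4 CPM at colouring and 206 ± 7.76 CPM at ripeness (SD, n = 3 each).

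MYBA1, the activator of anthocyanin synthesis, had 0, 0 and 2 counts in green Danfeng-2 skin and 0 counts in the other 9 libraries of Danfeng-2. In Cabernet Sauvignon it had 0, 2 and 0 counts when green, 0 in each library at softening, 347, 510 and 543 at colouring, and 986, 1074 and 1011 when ripe. Its colouring and ripe libraries stood above all others and did not overlap each other. Its mean was 30.2 ± 5.08 CPM at colouring and 75.2 ± 4.56 CPM at ripeness in Cabernet Sauvignon (SD, n = 3 each). For both rows, the order of the other 6 groups rests on 0 to 6 counts per group, with no library above 0.225 CPM.

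UFGT followed the same outline at a higher level. Danfeng-2 held 12 UFGT counts over its 12 libraries, with a highest level of 0.244 CPM. In Cabernet Sauvignon UFGT averaged 0.274 ± 0.301 CPM at the green stage, 0.139 ± 0.164 CPM at softening, 350.9 ± 11.7 CPM at colouring and 992.5 ± 22.4 CPM at ripeness (SD, n = 3 each).

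**Figure D2:**
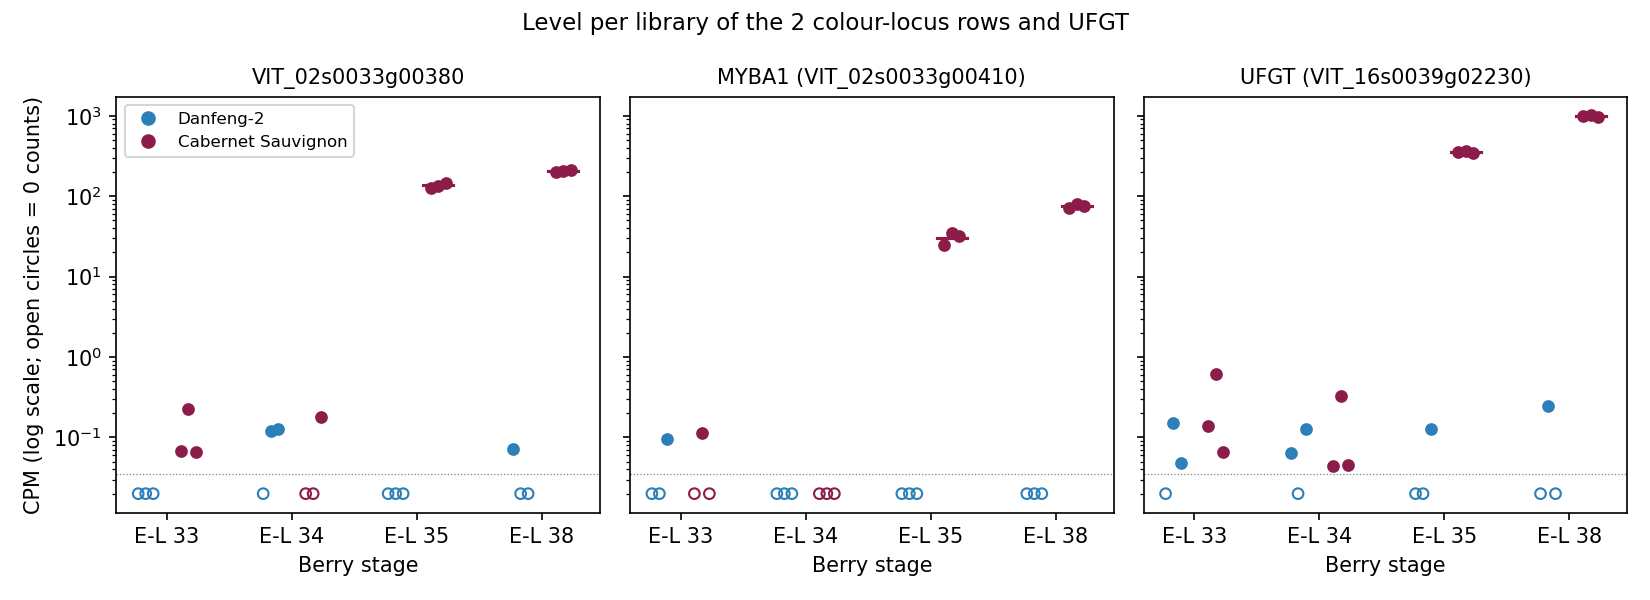
CPM per library on a log scale by berry stage for VIT_02s0033g00380, MYBA1 and UFGT, with filled points for libraries with counts, open circles for libraries at 0 counts and bars for the mean of the 3 libraries. Cabernet Sauvignon at E-L 35 and E-L 38 lies at 24.5 CPM or above for all 3 genes, and every other library lies at 0.618 CPM or below.

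Levels can be set between genes only per kb. On the Length in the tables, Cabernet Sauvignon had 112.5 ± 8.57 CPM per kb of the wide row, 37.2 ± 6.26 of MYBA1 and 244.5 ± 8.14 of UFGT at colouring. At ripeness it had 169.8 ± 6.4, 92.7 ± 5.62 and 691.7 ± 15.6 CPM per kb, in the same order of genes. By the deposited FPKM, the mean level at colouring was 359.7 ± 18.4 for the wide row, 46.1 ± 7.83 for MYBA1 and 267 ± 9.67 for UFGT. At ripeness the FPKM was 502.7 ± 25.8, 115.2 ± 7.11 and 756.4 ± 17.8. The wide row thus stood below UFGT by CPM per kb at both stages, but above it by FPKM at colouring, while MYBA1 was the lowest of the 3 on both scales.

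Danfeng-2 against Cabernet Sauvignon asks how the species differ at a given stage. At colouring both rows were lower in Danfeng-2, 2 of 2, where 16.7% of all tested models were called lower. VIT_02s0033g00380 was at least 2177.8-fold lower, with 0 counts in Danfeng-2 and 6330 in Cabernet Sauvignon (edgeR, Benjamini-Hochberg adjusted p = 3.8e-12). MYBA1 was at least 481.7-fold lower, with 0 counts in Danfeng-2 and 1400 in Cabernet Sauvignon (edgeR, Benjamini-Hochberg adjusted p = 6.85e-09). These bounds place the group of 0 at 3 counts over its 3 libraries and cover counting error only. UFGT, their known target, was 8344.2-fold lower, on 2 counts in Danfeng-2 (95% exact interval 2309.5 to 68906.8; edgeR adjusted p = 5.94e-13). Both counts are in replicate 3, without which UFGT was at least 3702.2-fold lower, and the Normalized value implies 1 count there, or 16687.4-fold.

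At ripeness both rows were again lower in Danfeng-2, 2 of 2, against 16.3% of all tested models. VIT_02s0033g00380 was 7871.2-fold lower, on 1 count in Danfeng-2 and 8410 in Cabernet Sauvignon (95% exact interval 1412.3 to 310932.6; edgeR adjusted p = 4.26e-12). Without replicate 1 of Danfeng-2, which holds that count, it was at least 1677.2-fold lower. MYBA1 was at least 958.1-fold lower, with 0 counts in Danfeng-2 and 3071 in Cabernet Sauvignon (edgeR, Benjamini-Hochberg adjusted p = 3.28e-09). For both rows, all 3 Danfeng-2 libraries lay below all 3 Cabernet Sauvignon libraries. UFGT was 12653.5-fold lower, on 3 counts in Danfeng-2 (95% exact interval 4329.5 to 61360.7; edgeR adjusted p = 2.56e-13).

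Before colouring, little could be measured. At the green stage the test called 1 of the 2 rows lower in Danfeng-2, where 14.6% of models were called lower: VIT_02s0033g00380, on 0 counts in Danfeng-2 and 6 in Cabernet Sauvignon, a difference of at least 2.41-fold (edgeR adjusted p = 0.0229). That call rests on few counts. Its adjusted p was 0.111 without replicate 2 of green Cabernet Sauvignon, which holds 4 of the 6 counts. It was 0.0517 and 0.0542 without replicate 2 or replicate 3 of green Danfeng-2. MYBA1 had 2 counts in each cultivar at the green stage, so no difference was detectable at this depth. At softening neither row was called, against 14.6% of models called lower and 12.8% called higher. VIT_02s0033g00380 had 4 counts in each cultivar at that stage (edgeR adjusted p = 0.745), and MYBA1 had none in either. Without replicate 3 of Cabernet Sauvignon at softening, which holds all 4 counts of its group, the adjusted p was 0.0436 with Danfeng-2 higher.

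Of 28 other rows within 500 kb, 11 passed the filter on low counts, and these 11 were read in all 12 Danfeng-2 libraries and all 12 Cabernet Sauvignon libraries. Their summed level was 95.1 to 153.3 CPM in Danfeng-2, with a median of 128.5, and 82.8 to 126.3 CPM in Cabernet Sauvignon, with a median of 93.3. None of the 11 is close to the locus: the nearest lies 107.8 kb before the wide row and 248.9 kb past it. The other 17 rows had 0 to 19 counts each, 7 in Danfeng-2 and 31 in Cabernet Sauvignon in all. The row among them with the most counts, 28 kb past the wide row, had 0 in Danfeng-2 and 19 in Cabernet Sauvignon. Counts in Danfeng-2 close to the locus are thus too few to compare with those of its 2 rows. Reads of both species share 1 list of gene models, and how well reads of Danfeng-2 match these models at the locus was not tested. Over the whole table, 9 models had 0 counts in all Danfeng-2 libraries and a group mean of at least 10 CPM in Cabernet Sauvignon, and 4 models had the reverse. Neither row of the locus is among the 9, since they hold 5 and 2 counts in Danfeng-2.

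Within Cabernet Sauvignon, the stage comparisons ask when the locus comes on. From softening to colouring both rows rose, 2 of 2, where 14.5% of all tested models were called higher at colouring than at softening. VIT_02s0033g00380 was 2279.8-fold higher at colouring, with 6330 counts there and 4 at softening (95% exact interval 890 to 8369.9; edgeR adjusted p = 3.45e-12). All 4 counts are in replicate 3 of softening, 1 of the libraries that stood apart; without it the group was at 0 and the row at least 2019.2-fold higher. MYBA1 was at least 672.3-fold higher, with 1400 counts at colouring and 0 at softening (edgeR adjusted p = 4.47e-09). UFGT was 2588.2-fold higher at colouring (95% exact interval 1363.1 to 5661.2; edgeR adjusted p = 5.58e-13), and 7913.7-fold without replicate 2 of softening, which holds 7 of its 9 counts there. The step is the 1 interval of the 3 sampled in which the counts of both rows moved by orders of magnitude.

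Over the preceding step, softening against the green stage, neither row was called, where 7.42% of models were called higher and 11.6% lower. VIT_02s0033g00380 had 4 counts at softening and 6 at the green stage (edgeR adjusted p = 0.405). Without replicate 3 of Cabernet Sauvignon at softening, 1 of the libraries that stood apart and the holder of all 4 counts at softening, the row was called lower, on 0 counts against 6. MYBA1 had 0 counts at softening and 2 at the green stage.

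Over the whole span, both rows were higher at ripeness than at the green stage, 2 of 2, against 17.8% of models. VIT_02s0033g00380 was 1629.5-fold higher (95% exact interval 748.3 to 4441.4; edgeR adjusted p = 2.1e-12), and MYBA1 was 1785-fold higher, on 2 counts at the green stage (95% exact interval 493.7 to 14746.3; edgeR adjusted p = 1.42e-09). For UFGT the ratio was 3367.9 (95% exact interval 2007.1 to 6160.8; edgeR adjusted p = 1.58e-13). These ratios rest largely on replicate 2 of green Cabernet Sauvignon. Without it VIT_02s0033g00380 was 3057.7-fold higher on 2 green-stage counts, MYBA1 at least 744.4-fold higher against 0 counts, and UFGT 9830.9-fold higher on 3 counts.

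The late step, from first colour to ripeness, passed for MYBA1 and not for the wide row. MYBA1 had 70.6, 79.7 and 75.3 CPM at ripeness, against 24.5, 34.4 and 31.6 CPM at colouring. It was 2.49-fold higher at ripeness, a log2 fold change of 1.32 (SE 0.239; edgeR, Benjamini-Hochberg adjusted p = 0.0015). VIT_02s0033g00380 had 197.4, 207.9 and 212.6 CPM at ripeness, against 126.8, 135.2 and 147.4 CPM at colouring. Its libraries did not overlap between stages either, but its log2 fold change was 0.59 (SE 0.21; edgeR adjusted p = 0.0425), which is 1.51-fold and under the minimum for a call. So 1 of the 2 rows was called, where 3.63% of models were called higher. Over the alternatives, the adjusted p of VIT_02s0033g00380 ran from 8.71e-10 to 0.522. UFGT was 2.83-fold higher at ripeness, a log2 fold change of 1.5 (SE 0.282; edgeR adjusted p = 0.000467).

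Ratios taken within a library do not depend on its scaling. They would depend on any sharing of reads between the 2 rows, which was not tested. MYBA1 made up 26.3%, 27.7% and 26.2% of the counts in the 2 rows at ripeness, against 16.2%, 20.3% and 17.7% at colouring. The means were 26.7% ± 0.839 at ripeness and 18.1% ± 2.07 at colouring (SD, n = 3 each), and the stages did not overlap. The exact two-sided permutation test gave p = 0.1, the smallest that 3 libraries against 3 can give. Per kb of Length, the wide row exceeded MYBA1 by 1.87, 1.74 and 1.89 times at ripeness and by 3.45, 2.63 and 3.12 times at colouring. By FPKM that excess was 4.76, 4.27 and 4.1 times at ripeness and 9.1, 6.84 and 7.83 times at colouring, so the direction of the shift was the same on both scales.

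UFGT was also set against each row within the library. It had 5.08, 4.85 and 4.55 counts per count of VIT_02s0033g00380 at ripeness, against 2.75, 2.69 and 2.31 at colouring, with no overlap (exact two-sided permutation p = 0.1, the smallest possible). Per count of MYBA1, UFGT had 14.2, 12.7 and 12.8 counts at ripeness, against 14.2, 10.6 and 10.7 at colouring. These values overlapped between stages (exact two-sided permutation p = 0.4). The 3 ratios come from the same 3 genes and are not independent of each other. With 3 libraries against 3 none can reach 0.05, with or without adjustment.

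**Figure D3:**
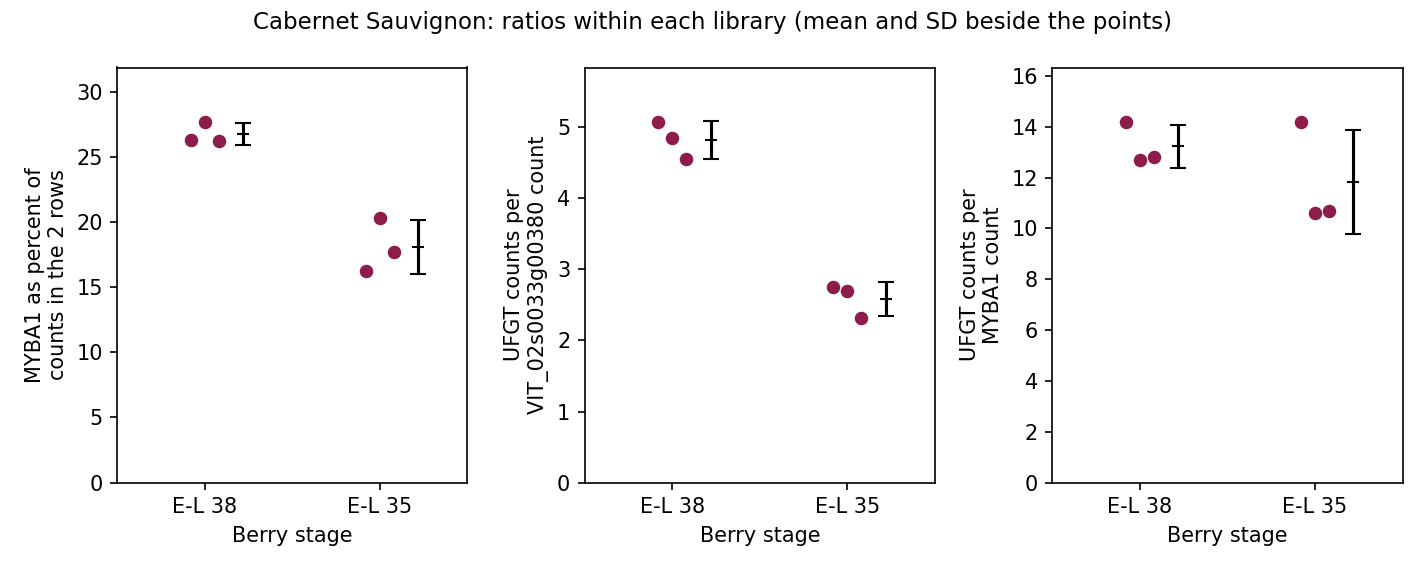
Ratios within each Cabernet Sauvignon library at E-L 38 and E-L 35, as points with the mean and SD of 3 libraries beside them. The percent of MYBA1 among counts of the 2 rows (26.7 at E-L 38, 18.1 at E-L 35) and UFGT counts per VIT_02s0033g00380 count (4.83 at E-L 38, 2.58 at E-L 35) do not overlap between stages, while UFGT counts per MYBA1 count (13.2 at E-L 38, 11.8 at E-L 35) do.

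In Danfeng-2 no step was called for either row, and both stayed at 2 counts or fewer in every library. With 5 and 2 counts over 12 libraries there, the rows passed the filter through their Cabernet Sauvignon counts. The lack of a call in Danfeng-2 was thus set by the depth and is not a finding of no change. Over the same libraries, in either direction, 10.3% of tested models were called between the green stage and softening, 9.12% between softening and colouring, and 24.3% between colouring and ripeness. Over the whole span, 30.4% were called. The 10.3% is 1893 models, which came to 935 in a fit of these groups alone, 1117 by limma on log2(FPKM + 1) and 1100 under a stricter filter on low counts (10 CPM in 3 libraries). The lowest adjusted p for VIT_02s0033g00380 was 0.115, for 4 counts at softening against 0 at the green stage (edgeR).

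The difference between the species in a step was tested as an interaction. For the step from softening to colouring, VIT_02s0033g00380 changed less in Danfeng-2 (edgeR adjusted p = 3.67e-05), as did UFGT (edgeR adjusted p = 0.000993), where 10.6% of models were called in that direction. In counts, the wide row had 0 at colouring and 4 at softening in Danfeng-2, against 6330 and 4 in Cabernet Sauvignon. Those 4 Danfeng-2 counts are 2 in replicate 2 and 2 in replicate 3, and the Normalized value implies 1 in each. The call thus rests on few counts on the Danfeng-2 side, where UFGT had 3 at softening and 2 at colouring. Both calls restate the rise in Cabernet Sauvignon. For MYBA1, 3 of the 4 groups in this contrast were at 0 counts, and edgeR could not determine the term (adjusted p = 1). DESeq2 gave an adjusted p of 1.06e-07 and limma on log2(FPKM + 1) one of 4.74e-16. With both Danfeng-2 groups at 0, these values restate the step in Cabernet Sauvignon, and no change in Danfeng-2 could be measured.

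For the whole span from green to ripe, MYBA1 changed less in Danfeng-2 (edgeR adjusted p = 0.00102), as did UFGT (edgeR adjusted p = 0.000226), against 30.6% of models called in either direction. Both calls restate the rise in Cabernet Sauvignon, since Danfeng-2 held 4 green and 3 ripe counts of UFGT and 2 and 0 of MYBA1. The MYBA1 call needs the 2 counts of replicate 3 of green Danfeng-2. Without that library all Danfeng-2 groups of the contrast are at 0, and the adjusted p was 1. For VIT_02s0033g00380, Danfeng-2 at the green stage was at 0 and edgeR gave an adjusted p of 1, while DESeq2 gave 1.94e-06. For the late step neither row was called by edgeR, against 25.1% of models. The adjusted p was 0.445 for VIT_02s0033g00380 and 1 for MYBA1, which was at 0 in both Danfeng-2 groups.

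Likeness of pattern was described by the Pearson correlation of the 8 group means of log2(CPM + 0.5), over 13129 tested models with a highest group mean of at least 10 CPM. UFGT ranked first for both rows, with r = 0.9987 to VIT_02s0033g00380 and r = 0.9992 to MYBA1, and the rows had r = 0.997 with each other. Next for both was VIT_04s0079g00690, on chromosome 4 from 11505001 to 11507285, a model that the files do not name, with r = 0.9969 to VIT_02s0033g00380 and r = 0.9958 to MYBA1. It averaged 0.473, 0.0833, 0 and 0.206 CPM in Danfeng-2 and 0.739, 0.0302, 1377.8 and 2929.4 CPM in Cabernet Sauvignon, in order of stage. In 6 of the 8 groups the rows are near 0, so these values of r rest on the remaining 2 groups, and all models compared come from the same libraries.

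The tested neighbours of the locus did not share its pattern. Of the 28 rows within 500 kb, 12 had 0 counts in all 24 libraries. The wide row overlaps 4 of the 28; 3 of these were at 0 everywhere and the other had 1 count. The 11 tested neighbours were compared between the species stage by stage. In green berries 3 of the 11 were called higher and 3 lower in Danfeng-2, where 13.5% and 14.6% of all tested models were. At softening 2 were higher and 3 lower (12.8% and 14.6% of all). At colouring 2 were higher and 2 lower (17.7% and 16.7% of all), and in ripe berries 3 were higher and 3 lower (15.3% and 16.3% of all). Over the step to colouring in Cabernet Sauvignon, where both rows of the locus rose, 1 of the 11 was called higher and 2 lower, against 14.5% and 16.9% of all tested models. Over the whole span none was called higher at ripeness and 5 were called lower, against 17.8% and 23.2% of all tested models.

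The neighbours differed from each other as well. VIT_02s0033g00260, from 13992115 to 14031457, was higher in Danfeng-2 at each stage, at 53.2, 43, 35.5 and 11.1 CPM in Danfeng-2 and 4.27, 5.15, 1.65 and 0.932 CPM in Cabernet Sauvignon in order of stage. This row encloses another, so reads may be split between them. VIT_02s0033g00540, from 14617194 to 14631753, was lower in Danfeng-2 at each stage, at 6.13, 6.82, 7.66 and 10.2 CPM in Danfeng-2 and 31.6, 29.2, 21.9 and 27.8 CPM in Cabernet Sauvignon. All 8 of these differences passed the test. The other 2 of the 4 neighbours with the highest mean CPM were less uniform. VIT_02s0033g00240 was called higher in Danfeng-2 only when green, at a log2 difference of 1.24, against 0.74, 0.93 and 0.51 at the later stages. VIT_02s0033g00520 was called only when ripe, at log2 differences of -0.95, 0.25, 0.15 and 1.65 in order of stage. The heat map of the neighbourhood shows that both colour-locus rows are dark in 6 groups and brightest in 2, unlike any of the 11 around them.

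**Figure D4:**
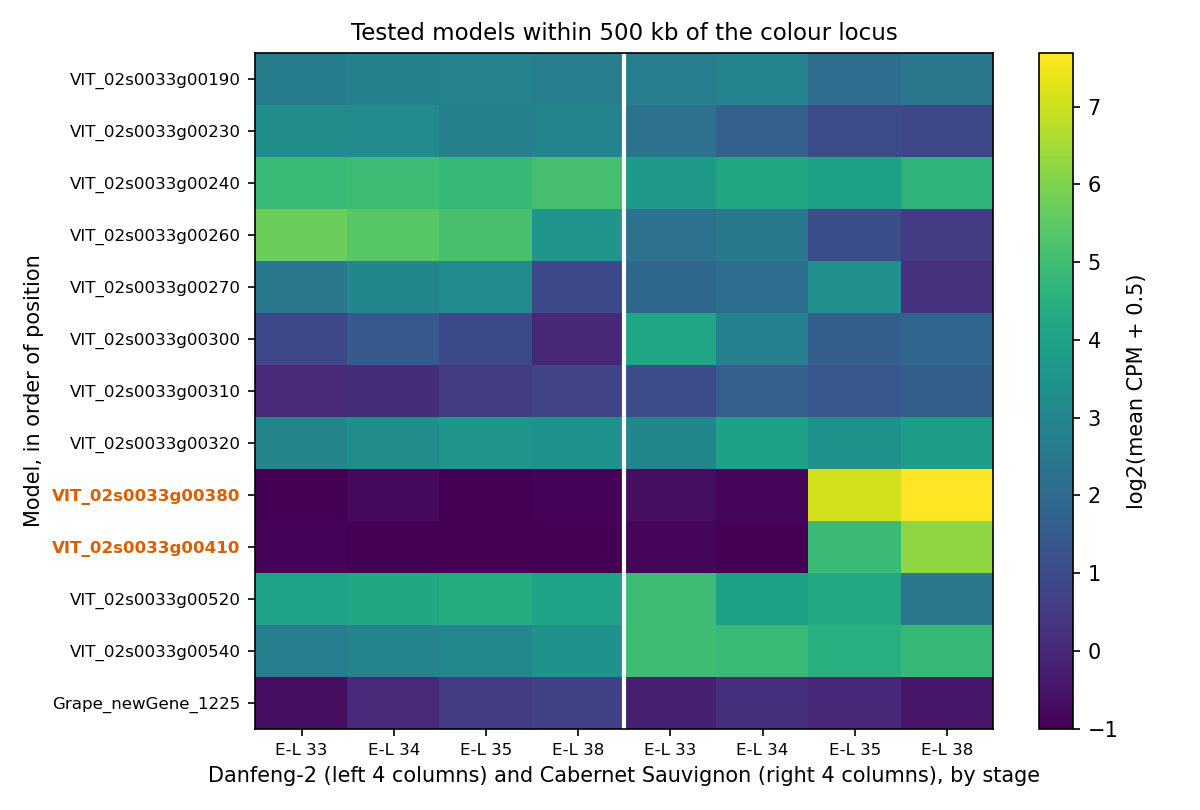
Group means as log2(mean CPM + 0.5) for the 11 tested neighbours within 500 kb and the 2 colour-locus rows (orange labels), in order of position, with the 4 Danfeng-2 stages left of the 4 Cabernet Sauvignon stages. The 11 neighbours are read in both species, and the 2 locus rows are bright only in Cabernet Sauvignon at E-L 35 and E-L 38.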

How the data were processed

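The labels describe total RNA of grape skin, extracted with a plant kit and made into libraries by a standard protocol. The submitters' processing notes name TopHat2, with no version. No source used here names the genome build, the annotation, the counting program or whether strand was used. The deposited tables, 1 per library, hold whole-number counts per gene model, the unit of every main test. FPKM values were deposited by the authors and served as an alternative. The Normalized value, a signal deposited by the authors, is for most models the count times 1 factor per library. Some low counts lie about 1 above what it implies: by it, VIT_02s0033g00380 has 3 counts in place of 5 over the Danfeng-2 libraries, and UFGT 9 in place of 12. Ratios from these implied counts were added after the data were seen.

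Libraries were grouped by labelled cultivar and stage. Nothing in the labels ties a replicate to its own plant, so p-values reflect no more than how these libraries vary, and that variation may be technical. No pair of libraries in a group agreed within sampling noise (chi-square per degree of freedom at least 1.54).

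The counts were tested with edgeR 4.0.16 (R 4.3.3): filterByExpr kept 18375 of 27711 models (4474 of the models it dropped were at 0 in all libraries), scaling was by TMM, and 1 quasi-likelihood fit took in all 24 libraries in 8 groups. Adjustment was by Benjamini-Hochberg over all models in each of 15 comparisons. Simulated counts with known changes between Danfeng-2 and Cabernet Sauvignon at E-L 35 (17818 models) gave back 74.7% of 95 3-fold and 83.8% of 105 4-fold changes, with 2 false calls. These counts had 1 mean level per model apart from the planted changes. They do not show how the test behaves where a group is near 0. Fold ratios near 0 are ratios of summed counts over summed adjusted totals. A group at 0 was set to 3 counts over its libraries as a floor; this floor and the 95% intervals (exact binomial) cover counting error only. Alternatives were RLE factors, no filter and a stricter one (10 CPM in 3 libraries), a replicate block, a fit restricted to the groups compared, DESeq2 (1.42.0), limma (3.58.1) with pseudocounts of 1 or 0.1 on the log2 FPKM, no fold minimum, and libraries left out.

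The members, lists and rules were chosen with earlier results of these data known. Named were the 4 identifiers, UFGT, the neighbours called between species by count, and the models most alike in pattern. The rule allows 4 neighbours, those of the highest mean CPM, and 3 alike models with values. Fewer alike models are given because the files name no gene. None of the identifiers (0 of 27711) was found in a RefSeq table of assembly ASM3070453v1, so the list of anthocyanin pathway genes and the marker lists were not run. No sequence is printed, since none was at hand for these identifiers.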

Additional observations from a re-analysis of the deposited data

Results flagged for a closer look

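In 4 cases the test of a difference between the species in a change was called. For the step from softening (E-L 34) to colouring (E-L 35), this held for VIT_02s0033g00380 (edgeR adjusted p = 3.67e-05) and for UFGT, VIT_16s0039g02230 (edgeR adjusted p = 0.000993). For the span from green (E-L 33) to ripe (E-L 38) berries, it held for MYBA1, VIT_02s0033g00410 (edgeR adjusted p = 0.00102), and for UFGT (edgeR adjusted p = 0.000226). In each case all 3 Cabernet Sauvignon libraries at the later stage lay above all those at the earlier stage, and Danfeng-2 had 4 counts or fewer per group. All 4 calls thus restate the rise in Cabernet Sauvignon, and no change in Danfeng-2 could be measured. The MYBA1 case needs the 2 counts of replicate 3 of green Danfeng-2 and was not called without that library. The VIT_02s0033g00380 case rests on 4 counts at softening on the Danfeng-2 side.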

How the results depend on the processing

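Of 346 alternative values for VIT_02s0033g00380 and MYBA1, 324 kept their direction and their side of the threshold, as did all those of the reported UFGT calls. The calls of both rows between the species at E-L 35 and E-L 38, and in Cabernet Sauvignon at E-L 35 over E-L 34 and E-L 38 over E-L 33, held in every alternative run. Those that did not hold rest on groups of 0 to 6 counts. Log2 differences follow, and apart from the groups at 0 named for MYBA1, the cause was not tested for the tools. For VIT_02s0033g00380 in Cabernet Sauvignon at E-L 34 over E-L 33, the value was -1.83 by limma at a pseudocount of 0.1 and -4.13 with the 3 apart libraries omitted, both called, and -4.13 to -0.14 with 1 library left out at a time. For this row in Danfeng-2 over Cabernet Sauvignon, it was -0.6 at E-L 33 with limma on log2(FPKM + 1), and with 1 library left out -4.4 to -3.29 at E-L 33 and -0.12 to 3.57 at E-L 34. Its interaction for E-L 38 over E-L 33 was called with DESeq2 (-9.08) and limma (-9.6 with a pseudocount of 0.1, -8.32 with 1). That for E-L 38 over E-L 35 turned to -0.12 and -0.43 with limma, and ran from -0.59 to 2.01 with 1 library left out. The MYBA1 interaction was called for E-L 35 over E-L 34 with DESeq2 (-11.79) and limma (-8.84 and -5.54), and for E-L 38 over E-L 35 with limma (-1.33 and -1.31). In both contrasts MYBA1 was at 0 counts in the Danfeng-2 groups, so these values restate the change in Cabernet Sauvignon. For E-L 38 over E-L 33 the MYBA1 interaction ran from -15.72 to -10.56 with 1 library left out, and -10.56 was no longer called.

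The replicate numbers did not pair the libraries: of 84 same-numbered pairs, with deviations correlated at -0.21 to 0.23, 3 were over 0.1. With a replicate block no call of either row or UFGT changed; VIT_02s0033g00380 at E-L 38 over E-L 35 in Cabernet Sauvignon had a log2 fold change of 0.6 and an adjusted p of 0.0534.

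Counts of all models called were also taken under the stricter filter and without a fold minimum. For Danfeng-2 over Cabernet Sauvignon, 3748 and 11314 models were called under these at E-L 35, against 6321, and 3553 and 10864 at E-L 38, against 5806. At E-L 33 they were 2889 and 10527, against 5173, and at E-L 34 they were 2761 and 9691, against 5041. In Cabernet Sauvignon they were 3781 and 11002 at E-L 35 over E-L 34, against 5776, 1115 and 5732 at E-L 38 over E-L 35, against 1950, and 2034 and 8642 at E-L 34 over E-L 33, against 3492. Limma on log2(FPKM + 1) called 1181 at E-L 38 over E-L 35 in Cabernet Sauvignon. In Danfeng-2 at E-L 34 over E-L 33, against 1893, there were 1100 and 3824 under the stricter filter and without a fold minimum, 935 in a fit of the 2 groups alone and 1117 with limma on log2(FPKM + 1). There were 2976 and 9207 at E-L 38 over E-L 35, against 4470, and 3616 and 10572 at E-L 38 over E-L 33, against 5583. Without a fold minimum there were 4897 at E-L 35 over E-L 34, against 1676. Leaving out the 3 apart libraries gave 2488 for that step, and 5747 in place of 4407 for its interaction. Depth limits what can be said before colouring and in Danfeng-2, where 3 counts over a group are 0.0451 to 0.0785 CPM.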

Other observations

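The few counts seen in Cabernet Sauvignon before colouring were unevenly placed. At E-L 33, replicate 2 held 4 of the 6 counts of VIT_02s0033g00380, both counts of MYBA1 and 11 of the 14 counts of UFGT. At E-L 34, replicate 3 held all 4 counts of VIT_02s0033g00380, while UFGT had 1, 7 and 1 counts in replicates 1, 2 and 3.

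The on and off pattern of the locus was shared by few models. At least 10 CPM in all 6 Cabernet Sauvignon libraries at E-L 35 and E-L 38 and at most 1 CPM in each of the other 18 libraries was met by 3 of 18375 tested models: VIT_02s0033g00380, MYBA1 and UFGT. With a ceiling of 2 CPM it was met by 8, and none of them was a neighbour of the locus. Both limits were chosen after the values were seen, so the count is a description of these libraries.

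Models with at most 12 counts over all 12 libraries of one species and a group mean of at least 10 CPM in the other numbered 77 with few counts in Danfeng-2 and 26 with few counts in Cabernet Sauvignon. VIT_02s0033g00380 and MYBA1, with 5 and 2 counts in Danfeng-2, are among the 77. UFGT, with 12, lies at the limit, so its place among them follows from where the limit was set. These numbers are a description of these libraries.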
